A study of Mus musculus with 2 samples.

Results

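The genes described here are the abundant long intergenic noncoding RNA (lincRNA) genes of the newborn mouse midbrain. They are the genes that GENCODE M21 types as lincRNA and that stood at 5 TPM (a level scaled to the library and corrected for transcript length) or more in both libraries. Genes on the X chromosome and Meg3, Rian, Mirg, H19 and Peg13 were left out. The members were therefore chosen by their measured level, and that level is a description with no test. The tables held 2777 lincRNA genes among 42462 genes matched to GENCODE M21, and 91 lincRNA genes reached 5 TPM in both libraries. Of these, 4 on the X chromosome and 3 of the named genes were left out, and 84 remained. A further 2047 autosomal lincRNA genes below the threshold served for comparison.

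The libraries hold total RNA from the midbrain of B6NCrl mice on postnatal day 0, with no allele or agent named in the labels. There was 1 group of 2 libraries, each from a single midbrain, pup 1 as replicate 1 and pup 3 as replicate 2. The animals share 1 donor identifier and their sex is not recorded. Pup 1 had 36934868 expected counts in all and pup 3 had 40769103. The labels give a size range above 200 nt, so mature small RNAs lie outside what was sequenced. With 2 animals in 1 group no contrast of conditions exists and no p-value is given. In all that follows a pair of values is pup 1 first and pup 3 second. The deposited tables come from bulk tissue, in which fewer cells of a type and less RNA per cell cannot be told apart.

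A lincRNA is a transcript, usually spliced and polyadenylated, that does not overlap coding exons on its own strand and has no long open reading frame. Some stay in the nucleus and help build nuclear bodies, some serve mainly as precursors of small RNAs that are cut from their introns or exons, and some act in the cytoplasm by holding RNA-binding proteins or microRNAs. Many start next to a coding gene and are read away from it. In the brain they are often transcribed at the loci of transcription factors that pattern neural progenitors.

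All 3 genomic copies of miR-9, a microRNA of neural progenitors that restrains progenitor genes and promotes neuronal differentiation, lay inside members on the same strand. The mature sequences of the microRNAs inside members that RefSeq gives (GRCm38.p6) are shown because they are the known products of these loci. Capitals mark the seed, bases 2 to 8, which pairs with target RNAs.
miR-9-5p: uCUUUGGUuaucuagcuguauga
miR-9-3p: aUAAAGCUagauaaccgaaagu
miR-129-5p: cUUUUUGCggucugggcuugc
miR-129-2-3p: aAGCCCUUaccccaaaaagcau
miR-670-5p: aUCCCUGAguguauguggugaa
miR-670-3p: uUUCCUCAuauccauucaggagugu
miR-1839-5p: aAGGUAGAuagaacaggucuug
miR-6516-5p: uUUGCAGUaacagguguggaca
miR-6516-3p: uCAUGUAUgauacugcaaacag
miR-3093-5p: cGCACCCCgcggagcucacacu
miR-3093-3p: uGUGGACAccgugggagguugg
The mature miR-9-5p is the same from each copy, at chr3:88215613-88215635, chr13:83738821-83738843 and chr7:79505279-79505301, all on the plus strand. The other printed seeds differ from it and from each other.

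The 84 members spanned a wide range of levels, and a few genes held most of the signal. The members summed to 9582 TPM in pup 1 and 12533 TPM in pup 3, which was 82.1% and 84.3% of the TPM of all lincRNA genes. Malat1, Gm42418 and Gm26917 alone held 74.6% and 80.04% of the members' TPM. The other 81 members summed to 2431 and 2501 TPM, nearly equal in the 2 pups, and none of them exceeded a mean of 184 TPM. The median member stood at 13.2 and 12.9 TPM. In both pups, 49 members reached 10 TPM, 26 reached 20 TPM, 17 reached 50 TPM and 9 reached 100 TPM. The lowest expected count of any member in a library was 52, for Lockd in pup 3, and the median over members of the mean count was 389.5.

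**Figure D1:**
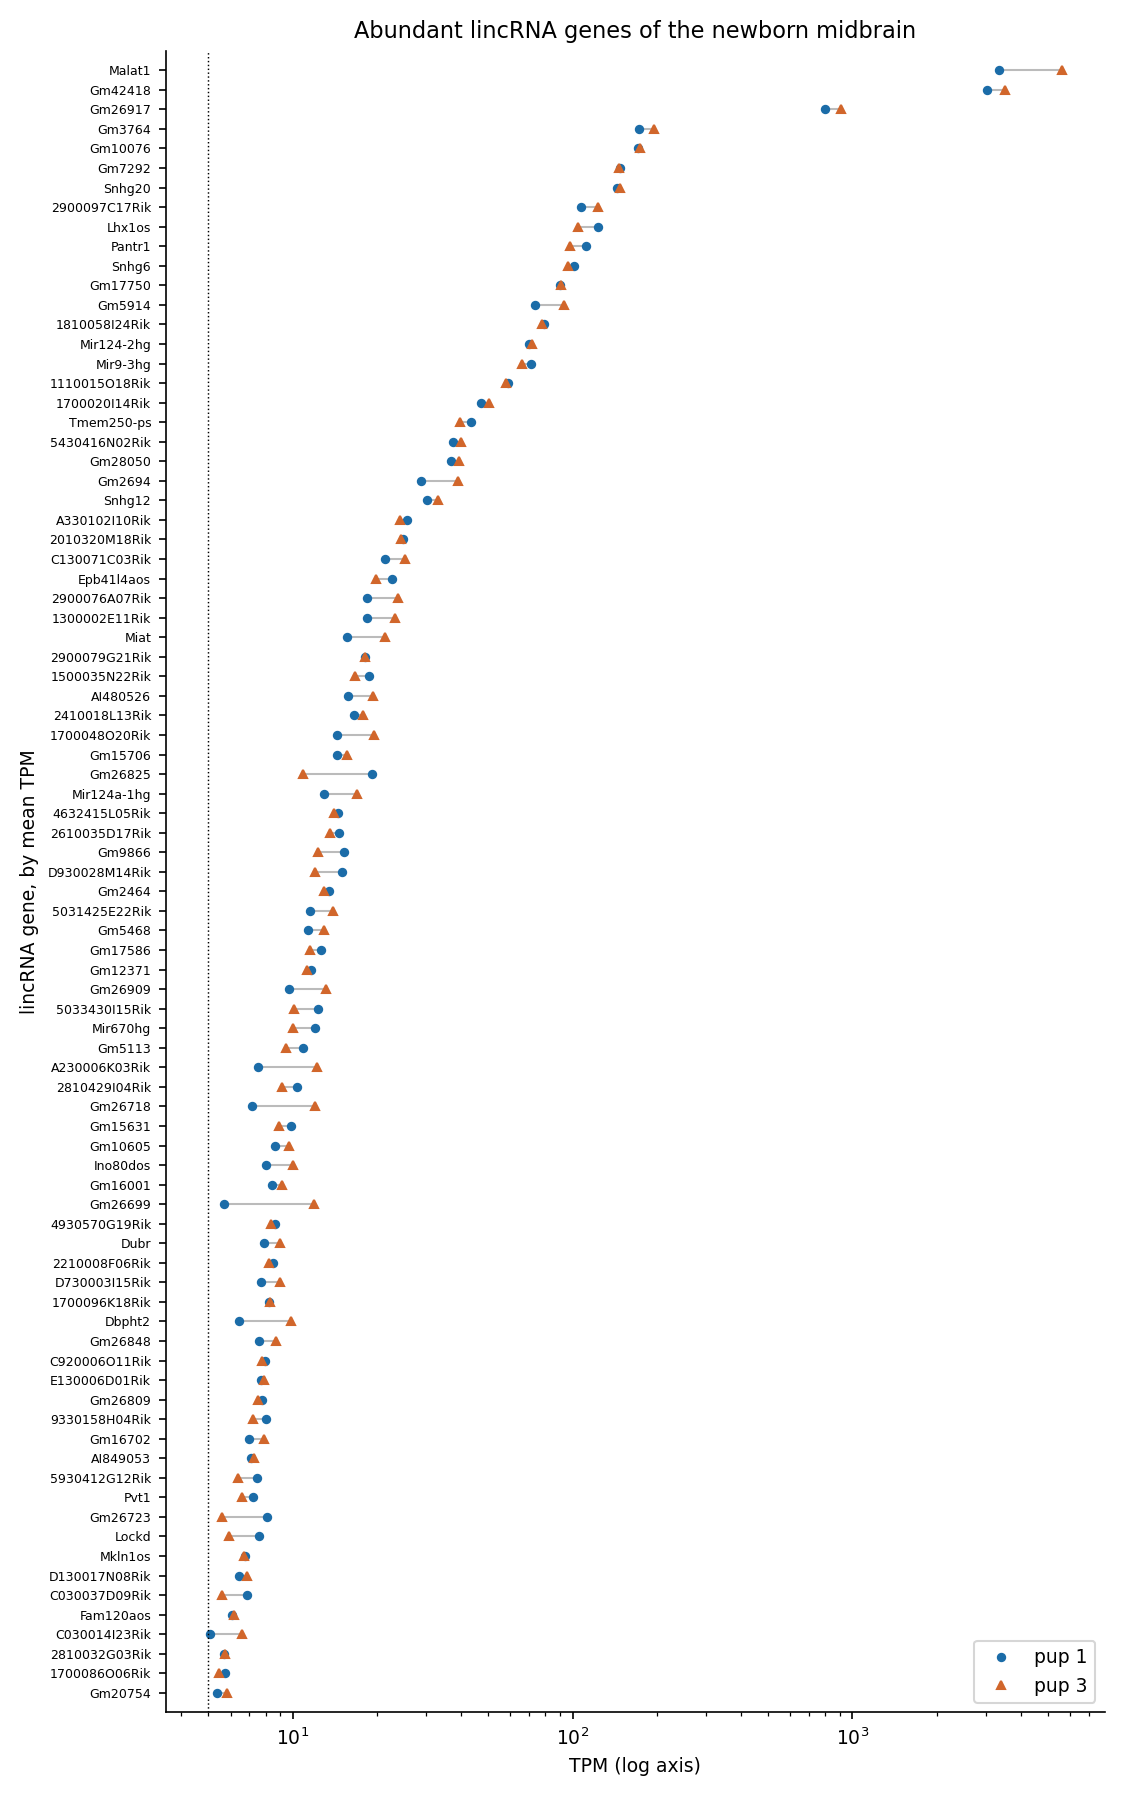
TPM of each of the 84 lincRNA genes (log axis) in pup 1 (circles) and pup 3 (triangles), ordered by mean, with the 5 TPM threshold dotted. Malat1, Gm42418 and Gm26917 stand apart on the right, and 33 genes have a mean below 10 TPM.

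Among the nuclear RNAs, Malat1, which sits in nuclear speckles and influences splicing factors, had the highest deposited level of all members. Malat1 (ENSMUSG00000092341.2, chr19:5795690-5802672, minus strand) stood at 3332 and 5613 TPM. Its expected counts were 33174 and 61230. The level depends on which transcript model received the reads: a spliced model of 485 nt at the 5′ end of the gene took 89.0% and 88.7% of the counts, and the full-length model of 6983 nt took 3634 and 6878 counts. With every count placed on the longest model, Malat1 would stand at a mean of 280 TPM, 15.96 times lower than deposited. On that scale it ranked 3 among the members rather than 1. Miat, a nuclear RNA of neurons that binds splicing factors, stood at 15.6 and 21.4 TPM. Neat1, the scaffold of paraspeckles and the neighbour of Malat1, was a lincRNA gene below the threshold, at 2.10 and 2.90 TPM. Each of these 3 nuclear RNAs was higher in pup 3.

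The next member by level goes against its label. Gm42418 (ENSMUSG00000098178.1, chr17:39846958-39848788, plus strand) stood at 3021 and 3509 TPM, from 120983 and 153534 counts. RefSeq lists it as a pseudogene under the symbol Rn18s-rs5, a name for a sequence related to 18S ribosomal RNA, and 1 rRNA gene of GENCODE M21 overlaps it. Gm26917 ends 616 bases upstream on the same strand and stood at 799 and 910 TPM. RefSeq did not match Gm26917, so a ribosomal origin is annotated for Gm42418 only. They are called the chromosome 17 pair here, and 180639 and 227729 counts fell on them together. Without the pair, the members held 75.6% of lincRNA TPM in place of 83.2% (means of the pups).

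Several other abundant members have an annotation that is not noncoding. RefSeq matched 69 of the 84 members by name and place: 63 as lncRNA, 3 as protein coding, 2 as pseudogene and 1 as transcribed pseudogene, leaving 15 unmatched. The second pseudogene was Gm10076, a gene without introns at 171 and 175 TPM. 1810058I24Rik, protein coding in RefSeq, stood at 79.3 and 77.8 TPM. Tmem250-ps and Dbpht2 were the other genes that RefSeq calls protein coding, at 43.3 and 39.6 TPM and at 6.45 and 9.84 TPM. Reads of a gene with a near-identical copy can be divided among the copies, and Gm10076 had expected counts that were not whole (1129 and 1257).

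Among the hosts of small RNAs, the 3 miR-9 hosts stood at different levels. Gm3764 (ENSMUSG00000097156.3, chr3:88206813-88229959), whose introns hold Mir9-1 and Mir3093, was the highest member after Malat1 and the chromosome 17 pair on the deposited scale, at 173 and 195 TPM. Mir9-3hg, with Mir9-3 in an intron, stood at 71.1 and 65.8 TPM. C130071C03Rik, with Mir9-2 inside an exon of at least 1 of its transcripts, stood at 21.4 and 25.2 TPM. Over whole genes the order Gm3764, Mir9-3hg, C130071C03Rik was the same in both pups, and the pups' values of neighbouring hosts did not overlap. With every count on the longest transcript the means were 75.6, 28.6 and 16.1 TPM, in the same order, but Gm3764 then ranked 9 among the members. The leading Gm3764 transcript (30.7% and 27.3% of its TPM) is annotated wholly downstream of Mir9-1. Likewise, the leading Mir9-3hg transcript (49.95% and 47.14%) starts downstream of Mir9-3. In C130071C03Rik the leading transcript (59.6% and 54.2%) spans Mir9-2. Among transcripts that span the miR-9 gene, the highest in Gm3764 stood at 12.7 and 11.2 TPM. In Mir9-3hg the highest such transcript stood at 12.5 and 14.35 TPM, and in C130071C03Rik at 12.7 and 13.7 TPM. The order seen over whole genes was thus not seen among these leading spanning transcripts. Sums over all spanning transcripts of a host were not compared. C130071C03Rik lies 54.3 kb from Mef2c, a transcription factor gene of neurons that stood at 17.4 and 19.1 TPM.

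Hosts of miR-124, the most characteristic microRNA of differentiated neurons, were also members. Mir124-2hg stood at 69.9 and 71.7 TPM and Mir124a-1hg at 12.9 and 17 TPM. Over whole genes the first was more than 4 times the second in each pup. GENCODE M21 has a further copy, Mir124a-3, which lies in no member. Mir670hg, which holds Mir129-2 in an intron and Mir670 in an exon, stood at 12.1 and 10.1 TPM. Among the genes that process microRNA precursors, Drosha stood at 36.9 and 40.0 TPM and Dgcr8 at 18.7 and 18.9 TPM, and 6 of 7 on that list reached 5 TPM. None of the 7 differed between the pups by 1 or more on the log2 scale.

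The small nucleolar RNA (snoRNA) hosts, whose introns release guides for the modification of ribosomal RNA, had similar levels in both pups. Snhg6, host to Snord87, stood at 101 and 96.0 TPM. Snhg12, host to Snora16a, Snora44, Snora61 and Snord99, stood at 30.3 and 33.1 TPM. Snhg20 holds a small Cajal body RNA gene (Gm26083) and Mir6516 and stood at 144 and 147 TPM. Epb41l4aos, host to a snoRNA gene (Gm23639), stood at 22.7 and 19.8 TPM. The largest difference between the pups among these hosts in size was -0.19 on the log2 scale, for Epb41l4aos. Better known hosts such as Gas5 (346 and 366 TPM) carry another GENCODE type and are no members. All 8 coding genes of the snoRNA protein complexes on the list reached 5 TPM, from Gar1 at 23.2 and 27.8 TPM to Snu13 at 231 and 213 TPM and Nop56 at 220 and 253 TPM, with none past a log2 difference of 1. The leading transcript of Snhg20, of 593 nt, held 96.7% and 96.5% of its TPM.

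In all, 12 of the 84 members (14.3%) held a snoRNA, small Cajal body RNA or microRNA gene on their own strand. The remaining hosts were 2900076A07Rik, with Mir1839, at 18.4 and 23.8 TPM, and Gm20754, with the microRNA gene Gm24544, at 5.35 and 5.81 TPM. Among the other 2047 autosomal lincRNA genes 41 were hosts, or 2.0%. The members were chosen by level and hosts were not, but genes are not replicates and the difference was not tested.

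**Figure D2:**
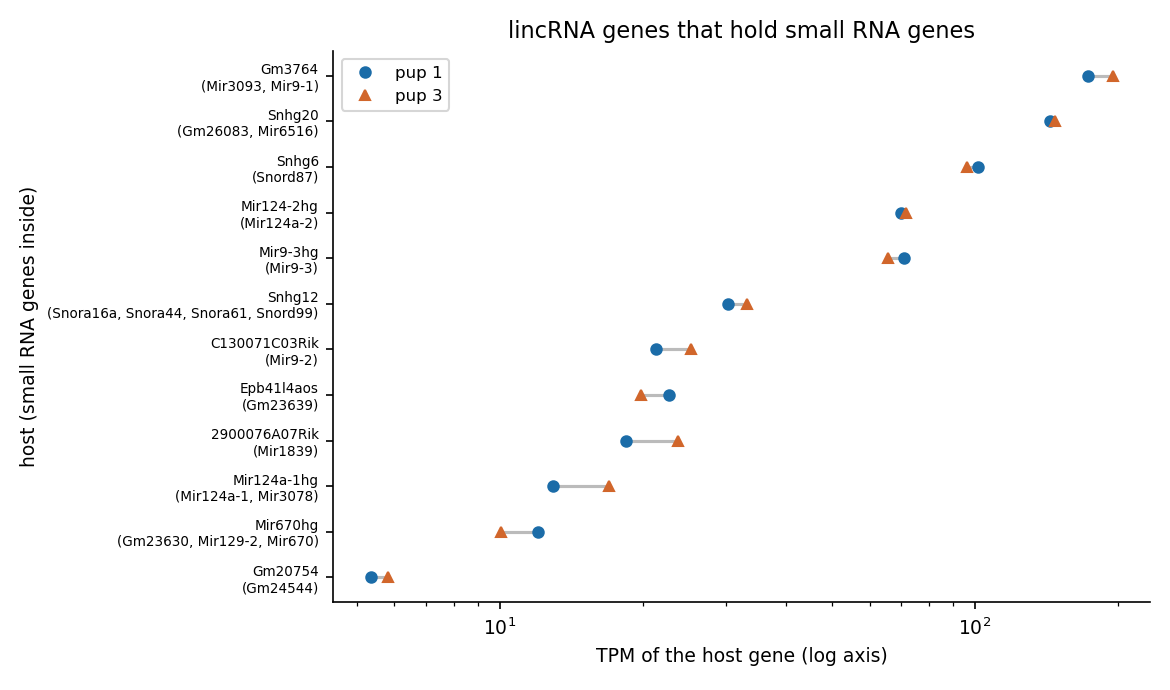
TPM of the 12 host genes (log axis) in pup 1 (circles) and pup 3 (triangles), with the small RNA genes inside them in brackets. Gm3764 stands highest, at 173 and 195 TPM, and Gm20754 lowest, at 5.35 and 5.81 TPM.

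Near genes of neural transcription factors, the RNAs stood above their coding neighbours at some loci and below at others. Lhx1os (ENSMUSG00000087211.3, chr11:84525660-84535831, plus strand), which starts 125 bases from Lhx1, a LIM homeobox gene of midbrain and other neurons, stood at 123 and 104 TPM. Lhx1 stood at 19.3 and 18.3 TPM. Pantr1 (ENSMUSG00000060424.10, chr1:42590782-42694842, minus strand), 926 bases from Pou3f3, a POU factor gene of neural progenitors, stood at 111 and 98.2 TPM against 9.79 and 10.2 TPM for Pou3f3. Both RNAs were thus above their coding neighbour in each pup. The leading Pantr1 transcript has 499 nt, and with every count on its longest transcript Pantr1 would stand at 23.6 TPM.

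The opposite order was seen at the SOX genes. A330102I10Rik lies 60.7 kb from Sox4 and stood at 25.5 and 24.1 TPM, against 97.2 and 115 TPM for Sox4. Gm9866 lies 174 kb from Sox11 and stood at 15.3 and 12.3 TPM, against 116 and 131 TPM for Sox11. Both SOX genes encode factors of immature neurons, and each was higher in pup 3 while its noncoding neighbour was lower there. The counting interval of the difference included 0 for A330102I10Rik (-0.31 to 0.15) and not for Gm9866 (-0.49 to -0.14). 2610035D17Rik, on the list of neural regulator loci, stood at 14.6 and 13.6 TPM. Of the 16 genes of that list found in the tables, 7 reached 5 TPM in both pups and 3 were members. The others had another GENCODE type (Six3os1, at 9.84 and 11.9 TPM) or lay below the threshold (Otx2os1, at 3.05 and 3.57 TPM).

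Head-to-head placement was common among the members. In 26 of 84 members (31.0%) the 5′ end lay within 2 kb of the 5′ end of a coding gene on the opposite strand, and in 19 of these pairs the 2 genes pointed apart. Of the other autosomal lincRNA genes 241 of 2047, or 11.8%, had such a partner. Each of the 26 coding partners reached 1 TPM in both libraries, against 81.7% of the partners of the 241 other head-to-head lincRNA genes. The partner was the higher gene in 16 of 26 pairs. The median member of a pair stood at 10.7 TPM and the median partner at 28.0 TPM. The median partner of the other 241 genes stood at 11.3 TPM. The partner's level over the member's ranged from -3.38 (Pou3f3 over Pantr1) to 5.17 (Basp1 over Gm5468) on the log2 scale. Annotation alone places the genes, and no start was measured in these libraries.

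The stretch between the starts is shown for a few pairs, because these bases lie upstream of both genes at once. They are the pairs with the highest lincRNA level whose starts in GENCODE M21 both fall in a RefSeq promoter window (GRCm38.p6), and capitals mark CpG dinucleotides. Each is written 5′ to 3′ on the strand of the coding gene, here always the minus strand.
Lhx1os and Lhx1: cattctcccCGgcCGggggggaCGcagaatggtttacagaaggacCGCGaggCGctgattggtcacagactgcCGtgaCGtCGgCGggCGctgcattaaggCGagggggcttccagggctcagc
2010320M18Rik and Pik3r2: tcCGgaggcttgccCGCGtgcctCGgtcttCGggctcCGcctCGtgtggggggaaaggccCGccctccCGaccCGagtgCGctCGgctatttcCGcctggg
Gm17586 and Mafg: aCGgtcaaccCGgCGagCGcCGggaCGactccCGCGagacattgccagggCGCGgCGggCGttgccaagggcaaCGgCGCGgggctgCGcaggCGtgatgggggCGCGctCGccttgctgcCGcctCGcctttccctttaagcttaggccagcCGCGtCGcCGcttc
Gm5113 and Zfp146: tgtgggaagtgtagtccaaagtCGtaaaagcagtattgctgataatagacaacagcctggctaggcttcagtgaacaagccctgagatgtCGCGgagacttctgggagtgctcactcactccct
They lie at chr11:84525536-84525659, chr8:70776714-70776814, chr11:120633601-120633767 and chr7:30169751-30169874. The Lhx1 stretch holds 12 CpGs in 124 bases, the Pik3r2 stretch 13 in 101 bases, the Mafg stretch 26 in 167 bases and the Zfp146 stretch 3 in 124 bases. Their ratios of observed to expected CpGs, given the C and G content, are 0.912, 0.96, 1.17 and 0.391. Promoter windows were found for 53 of the 84 members (63.1%), under the 80% needed for a check of base composition, so that check is void and these values describe the printed stretches only.

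Levels in the printed pairs did not follow one order. Lhx1os stood above Lhx1, and Gm5113 (10.9 and 9.49 TPM) above the zinc finger gene Zfp146 (4.13 and 4.79 TPM). 2010320M18Rik (24.8 and 24.4 TPM) stood below Pik3r2, a regulatory subunit of PI3-kinase (96.2 and 87.3 TPM), and Gm17586 (12.7 and 11.5 TPM) below Mafg, a small MAF factor (34.2 and 34.8 TPM). None of the values within a pair overlapped across the pups.

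Other head-to-head pairs with high lincRNA levels also differed in which gene was higher. Gm2464 (13.5 and 12.9 TPM) starts 174 bases from Ralyl (104 and 101 TPM), and 2900079G21Rik (18.1 and 18.2 TPM) starts 1661 bases from Arpp21, a regulated phosphoprotein of neurons (49.5 and 50.9 TPM). Here the coding gene was higher in each pup. AI480526 (15.7 and 19.4 TPM) stood above Setd1b, a histone methyltransferase gene (4.85 and 6.17 TPM). Gm5914 (73.1 and 93.5 TPM) has its start 917 bases from that of Ctcf, the insulator factor (61.3 and 68.6 TPM), and overlaps exons of a coding gene. Its expected counts were 423 and 585, not whole. The coding gene Agrp overlaps Gm5914 on the same strand, with its start 92 bases from that of Gm5914. Agrp had expected counts of 36.1 and 93.2, also not whole. The direction of the difference between the pups was the same for member and partner in 13 of 26 pairs, with Pearson's r of 0.07 and Spearman's rho of 0.12 across the 26 pairs, which share both libraries.

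**Figure D3:**
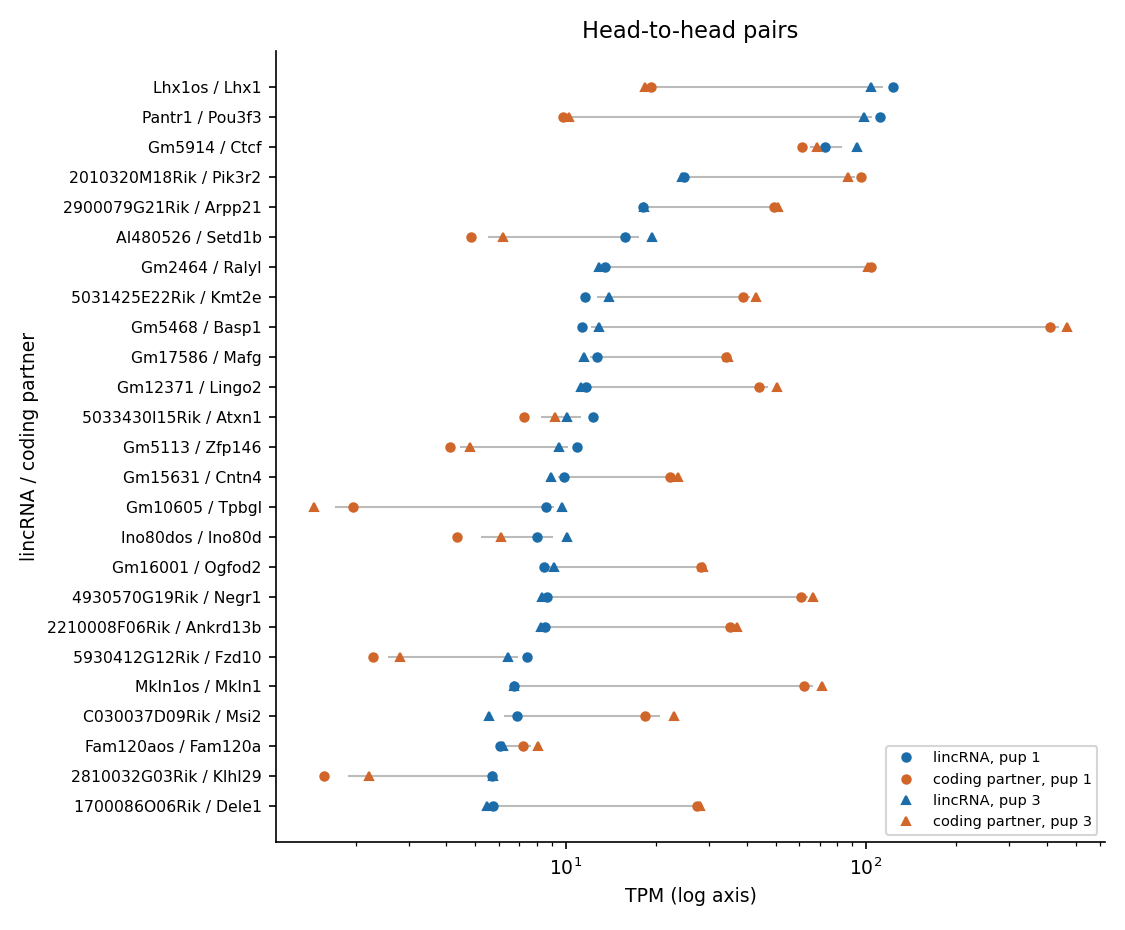
TPM (log axis) of the lincRNA (blue) and its coding partner (orange) in 25 of the 26 head-to-head pairs, circles for pup 1 and triangles for pup 3, with a line joining the means. The partner is higher in 15 of the pairs shown, and Lhx1os and Pantr1 are the highest lincRNAs.

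Members lay closer to coding genes than other lincRNAs did. The median gap to the nearest coding gene was 1.22 kb for members and 24.6 kb for the other autosomal lincRNA genes. For 70 of 84 members (83.3%) the nearest coding gene reached 1 TPM in each pup, against 75.7% of the other lincRNA genes and 63.3% of all autosomal coding genes. Over those that overlapped no coding gene the shares were 52 of 64 members (81.2%) and 76.1%, so that count is near its background. An exon of 17 members overlapped an exon of a coding gene on either strand, and 6 of these 17 had whole counts in both pups, against 53 of all 84 members. The level of a member and of its nearest coding gene had Pearson's r of -0.19 and Spearman's rho of -0.10 across 84 members on the log2 scale, genes that are not independent replicates. Without Malat1 and the chromosome 17 pair r was -0.09.

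The ratio of a member to its nearest coding gene ran from high to low extremes. Esp38, the nearest coding gene to the chromosome 17 pair, was listed at 0 in both pups. It lies 101732 bases from Gm42418 and 104179 bases from Gm26917. Gm17304, 34380 bases from Gm28050 (36.6 and 39.1 TPM), was also listed at 0 in both pups. For Gm3764 and Mir124-2hg the nearest coding gene was likewise at or near 0. Rhbg, 12915 bases from Gm3764, stood at 0.18 and 0.37 TPM. Cypt12, 139440 bases from Mir124-2hg, stood at 0.00 and 0.10 TPM. At the other end, A230006K03Rik (7.5 and 12.2 TPM) is 988 kb from Snrpn (1078 and 1011 TPM), Gm5468 (11.3 and 12.9 TPM) pairs with Basp1 (411 and 467 TPM), Gm26848 (7.55 and 8.68 TPM) overlaps Dynlt1a (286 and 276 TPM), and 2810429I04Rik (10.3 and 9.17 TPM) is 36.7 kb from Gdi2 (201 and 200 TPM). The sources do not say if the counts are stranded, so reads of Gm26848 cannot be told apart from those of the gene it overlaps.

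Few members lay just downstream of a coding gene on the same strand. It was found within 10 kb for 7 of 84 members (8.33%), against 6.6% of the other lincRNA genes, so that share is near its background. The highest was 1810058I24Rik, 5058 bases after Nup205. 1700020I14Rik, the mouse gene also called Oip5os1 or Cyrano, which holds a microRNA site that destroys miR-7, stood at 47.1 and 50.4 TPM and lies 7270 bases after Chp1. Lockd, 3579 bases after the cell cycle inhibitor gene Cdkn1b (20.3 and 21.8 TPM), stood at 7.59 and 5.93 TPM. Gm26718, Gm16001, Gm26848 and C920006O11Rik were the rest.

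The list of cytoplasmic and decay RNAs was led by 2900097C17Rik, the mouse Norad gene (ENSMUSG00000102869.1, chr2:156388065-156392979, minus strand). Norad RNA holds RNA-binding proteins in the cytoplasm. The gene has a single exon and stood at 107 and 123 TPM. Pvt1, also on that list and a neighbour of Myc at 47.6 kb, stood at 7.21 and 6.59 TPM. Where in the cell these RNAs lay was not measured. Of the 7 genes of the cytoplasmic and decay list found in the tables, 4 were members, Epb41l4aos among them. All 8 coding genes of nonsense-mediated decay, a pathway that removes many spliced noncoding RNAs, were above 1 TPM and 7 reached 5 TPM, with Smg1 at 8.09 and 11.8 TPM showing the largest difference in size.

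The level of many members depended on the transcript that received the counts. With every count placed on the longest transcript in the files, 26 members fell by more than 1.5 times and 14 fell below 5 TPM in at least 1 pup. The median ratio of deposited to longest-transcript level was 1.14. The ratio was 15.96 for Malat1, 7.04 for 2810429I04Rik, 6.30 for 5430416N02Rik, 5.47 for 1300002E11Rik, 4.45 for Pantr1 and 3.82 for Snhg20. Among 53 members with more than 1 read transcript, the leading transcript was the same in both pups for 48. The others were 1700086O06Rik, 5033430I15Rik, 9330158H04Rik, Mir124-2hg and Mir124a-1hg. In Mir124-2hg the leading transcripts had 3844 nt in pup 1 (36.2% there) and 535 nt in pup 3 (36.5% there), nearly equal shares in each pup.

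**Figure D4:**
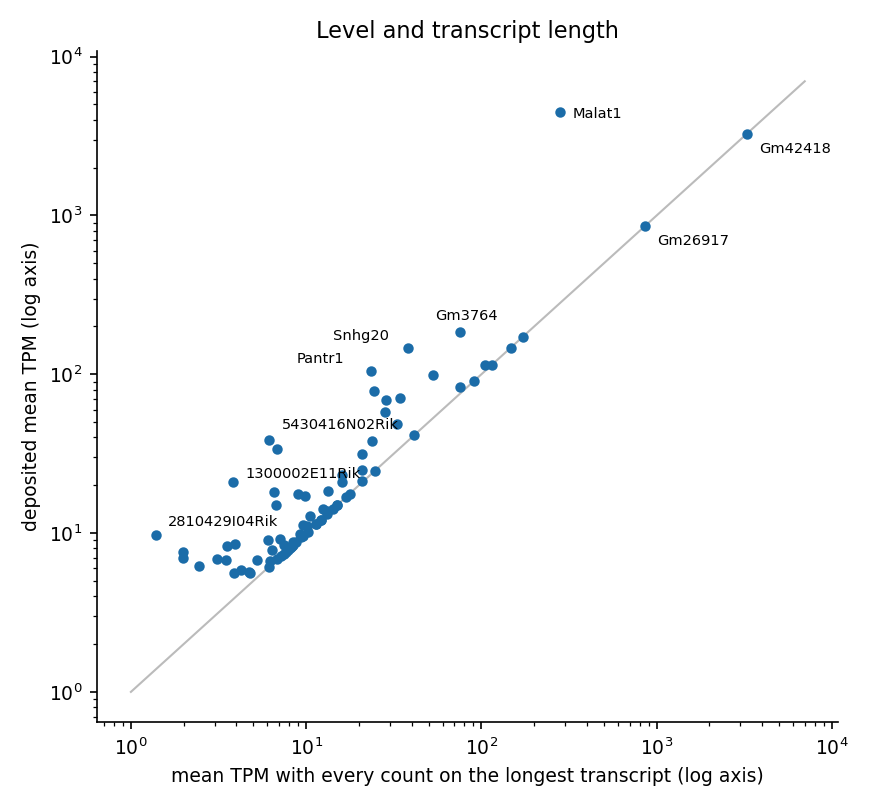
Deposited mean TPM of the 84 members against their mean TPM with every count on the longest transcript (both log axes), with the line of equality in grey. Malat1 lies 15.96 times above the line, and the chromosome 17 pair lies on it.

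Between the pups most members differed by less than 0.5 on the log2 scale, and the values below compare 2 animals, not conditions. Differences are log2 of pup 3 over pup 1 after adding 0.1 TPM, which understates the change of low genes. 1 of 84 members was higher in pup 3 by 1 or more, against 0.0857% of the 10505 autosomal genes that reached 5 TPM in each pup. No member was higher in pup 1 by as much, against 0.0286% of those genes. By 0.5 or more, 5 of 84 members were higher in pup 3, against 1.44% of those genes. By the same size 2 members were higher in pup 1, against 0.286%. The median difference was 0.03 for members and 0.01 for all those genes, and 47 members (56.0%) were higher in pup 3, against 53.0%. The median size of the difference was 0.16 for members and 0.10 for all those genes, whose median mean count was 1536.5. Over genes with a mean count of 1000 or more it was 0.17 for 17 members and 0.09 for 6961 genes.

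Gm26699 was the member past a difference of 1, at 5.67 and 11.9 TPM (difference 1.06, exact 95% counting interval 0.87 to 1.28). It lies opposite the splicing factor gene Luc7l2, which stood at 22.4 and 34.3 TPM, and its counts (287 and 658) were not whole. Malat1 followed at 0.75 (0.73 to 0.77), Gm26718 at 0.74, A230006K03Rik at 0.69, Dbpht2 at 0.60 and Miat at 0.45, all higher in pup 3. Gm26825 at -0.81 (19.1 and 10.9 TPM) and Gm26723 at -0.53 (8.08 and 5.58 TPM) were higher in pup 1. For 35 of 84 members the counting interval left out 0. It lay above 0 in 25 members, against 27.8% of the 10505 autosomal genes, and below 0 in 10 members, against 20.3%. Those genes have higher counts and so narrower intervals, and nothing is read from these shares. These intervals hold counting error alone and were computed from rounded expected counts. They leave out the spread between animals and the error of dividing reads among genes and transcripts. PCR copies were not marked by molecular identifiers either. For Gm26825 the counting interval was -0.97 to -0.65, while the deposited TPM intervals of the pups overlapped (10.7 to 22.3 and 4.43 to 15.0).

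Other measures moved between the same libraries. Transcripts typed as retained introns held 3.95% of TPM in pup 1 and 4.23% in pup 3. Of the nuclear speckle protein genes 9 of 10 were higher in pup 3, with a median difference of 0.23 and none past 1. Over the 10505 autosomal genes at 5 TPM or more in each pup, 53.0% were higher in pup 3, with a median difference of 0.01. The lists are small and were not tested against that share. In other coding lists, 8 of 8 genes of nonsense-mediated decay (0.20) and 5 of 8 of snoRNA protein complexes (0.18) were higher in pup 3. For microRNA processing it was 5 of 7 (0.12) and for paraspeckle proteins 7 of 9 (0.05). Forebrain and hypothalamus markers summed to 234 and 468 TPM. Of the 13 at 1 TPM or more, 8 were higher in pup 3 by 1 or more, among them Avp (124 and 270 TPM) and Agrp (2.70 and 6.49 TPM). Over the autosomal genes at 5 TPM or more in each pup that share was 0.0857%. Only 6 of the 16 listed markers reached 5 TPM in both pups, and no share over all genes at 1 TPM is given. Agrp overlaps the member Gm5914, so the 2 may share reads. On the list of 7 hindbrain markers only Gbx2 reached 1 TPM, at 13.04 and 19.6 TPM, and no listed Hox gene exceeded 0.03 TPM. Whether the Gbx2 level came from hindbrain tissue was not tested. Of the 7 midbrain markers, Tcf7l2 (645 and 726 TPM), Gata3 (80.6 and 75.6 TPM), Otx2 (50.3 and 51.2 TPM) and En1 (8.60 and 7.82 TPM) reached 5 TPM in both pups. Pax7 stood at 2.94 and 2.58 TPM, and En2 (0.88 and 0.74 TPM) and Lmx1b (0.55 and 0.70 TPM) lay below 1 TPM. Of the 5 midbrain markers at 1 TPM or more, 2 were higher in pup 3, with a median difference of -0.09. Among markers of cell types at 1 TPM or more, those higher in pup 3 were 5 of 9 for neurons (median difference 0.01), 3 of 8 for astrocytes and radial glia (-0.14) and 1 of 7 for the oligodendrocyte lineage (-0.24). They were 2 of 7 for microglia (-0.11), 0 of 6 for endothelium (-0.16) and 5 of 5 for blood (0.09), and none of these markers differed by 1 or more. The part of these in the differences of Malat1, Miat and the other members was not tested. Across the 84 members the difference of a member and that of its nearest coding gene had Pearson's r of 0.14, with 0.33 for the 20 that overlap a coding gene and -0.01 for the 64 that do not.

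**Figure D5:**
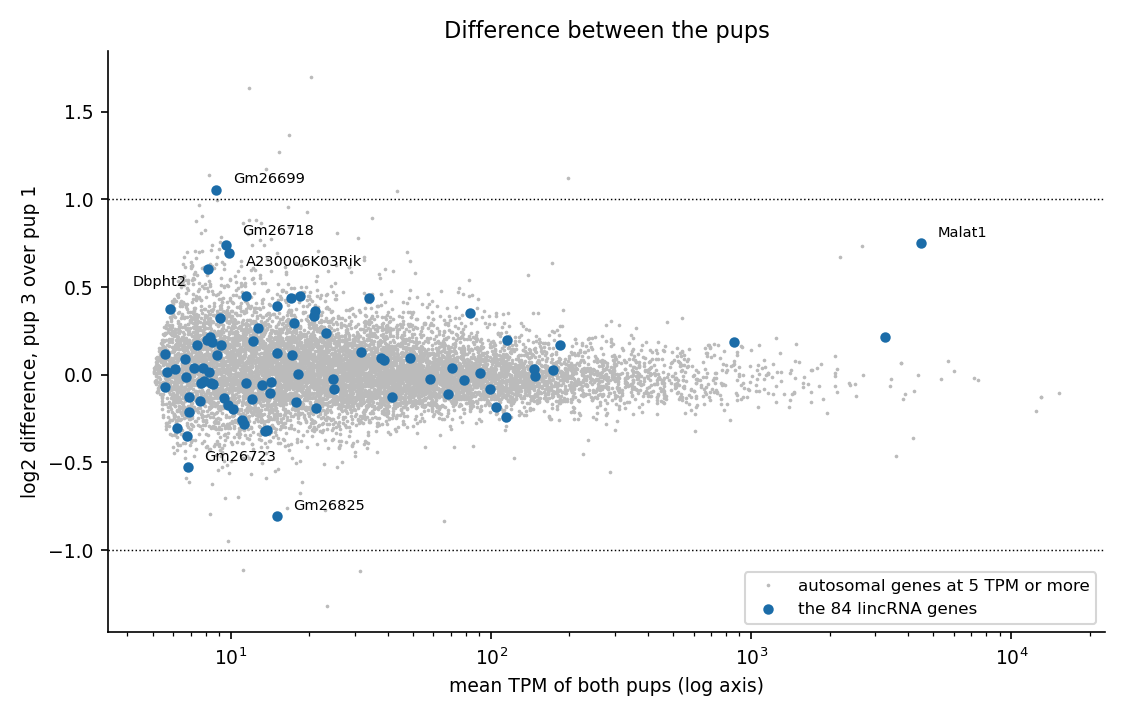
Log2 difference between the pups against mean TPM (log axis) for the 10505 autosomal genes at 5 TPM or more (grey) and the 84 members (blue), with differences of 1 dotted. Gm26699 lies above the upper line, and Malat1 stands at 0.75 on the right.

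The threshold cut through a continuous range of levels. Just inside it by the lower of their 2 values were C030014I23Rik (5.05 and 6.59 TPM), Gm20754 (5.35 and 5.81 TPM), 1700086O06Rik (5.74 and 5.47 TPM) and C030037D09Rik (6.89 and 5.57 TPM). Just outside were 1810044D09Rik (5.59 and 4.71 TPM), Gm16701 (4.43 and 4.71 TPM), Gm12976 (4.31 and 6.13 TPM) and Gm17484 (4.24 and 4.86 TPM). Of the members with no description above, Gm7292 (147 and 147 TPM) and Gm17750 (90.2 and 90.9 TPM) were the highest.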

How the data were processed

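Total RNA-seq of the midbrain was read from the gene and transcript tables of 2 libraries. Per the deposited text record, they came from alignments to the transcriptome of build mm10 with GENCODE M4. The sources used here name neither the program nor any use of strand. The deposited expected counts are the authors' estimates of reads per gene, and a count was called whole within 0.005. The deposited TPM and FPKM values are scaled to each library by the authors after division by effective length. The deposited transcript tables give the percent of a gene's TPM on each transcript. Types, symbols and positions were taken from GENCODE M21, on the same build as mm10, by gene identifier without version. Sequences and biotypes are RefSeq's (GRCm38.p6).

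The nearest coding gene is that with the smallest gap between gene bodies. Head to head means opposite strands with 5′ ends within 2 kb, and downstream means within 10 kb on the same strand. Host means a small RNA gene within the gene body on the same strand. Differences between pups are log2 of TPM plus 0.1. With 1 group of 2 animals there is no test. Counts were rounded to whole numbers for the scaling factors of edgeR 4.0.16 and DESeq2 1.42.0, used as alternatives only. The step that computes differences was tested on simulated data. Intervals are exact binomial at 95% (SciPy 1.17.1). Python 3.11.15, pandas 2.3.3 and R 4.3.3 were used.

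The members, gene lists and comparisons were chosen with earlier results of these data known. Genes were named by rule: the highest levels, the largest differences between pups, members of the lists, head-to-head, downstream and host members, the extremes of the ratio to the nearest coding gene, and those next to the threshold. Others were named after their values were seen. Rows without an Ensembl gene, 0.001% of the counts in each library, stayed out of the scaling factors. A few results are not reported here.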

Additional observations from a re-analysis of the deposited data

How the results depend on the processing

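The number of members was 148 at a threshold of 2 TPM and 49 at 10 TPM. It lay between 86 and 90 when either pup alone decided, was 59 with FPKM and 84 with posterior mean TPM, and was 70 with counts on the longest transcript, an alternative added after seeing the data. The members' share of lincRNA TPM, 83.2%, was 74.4% in expected counts, 81.2% in posterior mean TPM and 75.6% without Gm42418 and Gm26917 (added after seeing the data), and 82.1% to 84.3% with either pup alone. With a pseudocount of 1 TPM the count of members past a log2 difference of 1 was 0 in place of 1, since Gm26699 stood at 0.95. Under edgeR and DESeq2 scaling it stayed 1, and 44 rather than 47 members were higher in pup 3. The count downstream of a coding gene was 3 within 5 kb and 17 within 20 kb in place of 7. The correlation of members with their nearest coding gene, -0.19, was -0.057 within 50 kb and -0.031 without Gm42418 and Gm26917 (added after seeing the data), so it rests on that pair, and was -0.20 to -0.19 with either pup alone. Counts of nearest coding genes (70 to 71 with either pup alone), of head-to-head genes, of hosts and of shared leading transcripts moved by less than 1.5 times under every alternative run. The check of promoter CpG content and its alternative were not run. No paired analysis was possible because there is 1 group. With 2 animals and 1 library each, animal and library cannot be told apart, and the spread within a condition is known from this pair only.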
